A study of Mus musculus with 6 samples.

Results

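The genes described here are 224 zinc finger protein genes, those whose mouse symbol is Zfp followed by a number. They were chosen by symbol and by level on these arrays: a probe set, the group of probes that reads one transcript, had to carry that 1 symbol alone and to exceed a log2 intensity of 6 on at least 3 of the 6 arrays, and the probe set with the highest mean stood for the gene. Of 305 Zfp genes on the arrays 224 met the rule and 81 did not, of which 40 were still bright enough for the test (log2 above 4 on at least 3 arrays) and 41 were not. Across all genes with 1 symbol, 10587 met the same level rule and are the background used throughout. The level rule reads both genotypes, so it favours neither, except that Zfp647 met it through the Het arrays alone.

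CD4+YFP+ T cells were sorted from lymph nodes of mice with a FoxP3-GFP-hCre allele, which makes Cre under the control of Foxp3, the lineage factor of regulatory T cells, and a ROSA26R-YFP reporter, which marks every cell in which Cre has acted. The 3 Het arrays come from mice with 1 wild-type and 1 lox copy of Dicer (Dicerwt/lox) and the 3 KO arrays from mice with only lox copies (Dicerlox/lox), so both genotypes carry Cre, the reporter and a lox allele, and YFP also stays on in cells that have since lost Foxp3. Dicer cuts microRNA precursors, and the comparison asks how messenger RNA differs without it. Each group has an array A, B and C, the labels do not say whether they are separate animals, and the labels give no age. P-values therefore measure the spread between these arrays, which may be technical.

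Zinc finger proteins of this family fold short loops around zinc ions, usually through pairs of cysteines and histidines, and most bind DNA with an array of such fingers. The largest class carries a KRAB domain, which recruits the corepressor Trim28 and the histone methyltransferase Setdb1 and is known for silencing retroelements and imprinted loci. Many of these genes lie in clusters that arose by duplication. A few members, such as Zfp36, bind RNA instead.

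The genotype and the cells were checked first. The brighter Dicer1 probe set read 1203, 1077 and 1059 on Het A, B and C and 1029, 1053 and 1187 on KO A, B and C, and the other read 1218, 1120 and 1345 against 897, 976 and 709, neither past the test (limma, adjusted p = 0.891 and 0.145); they check no label, since their place within Dicer1 was not determined. The summed intensity of 4 T cell markers was 71235 to 88184 per array and that of 4 regulatory T cell markers 51446 to 64409. For the other cell types, 4 B cell markers summed to 516, 1625 and 549.6 in Het and 828, 2045 and 743 in KO. The 2 CD8 genes summed to 909, 2257 and 651 in Het and 670.2, 4415 and 636 in KO, with Het B and KO B highest. The 3 NK cell markers ranged from 1022 to 1757 in Het and from 1630 to 5530 in KO, and the 5 myeloid markers from 327 to 597 in Het and from 436 to 2316 in KO. Pax5, Ncr1, Cd14 and Itgam were too dim on all 6 arrays to be tested. Het B and KO B thus hold the most signal of other cells within their groups, so results are also given without them. Foxp3 itself read 9960, 8945 and 9769 on Het A, B and C but 5453, 9417 and 5420 on KO A, B and C, with KO B at the Het level. Of the other regulatory T cell markers, Il2ra (log2 difference 0.67) and Ctla4 (0.76) were higher on every KO array than on any Het array and Ikzf2 (-0.24) lower on every one. None of the 4 passed the test (limma, adjusted p from 0.0686 for Ctla4 to 0.342 for Ikzf2). The log2 ratio of 3 prime to 5 prime beta-actin signal, a sign of RNA quality, ran from 0.58 to 0.95 in Het and from 0.50 to 1.10 in KO. In bulk RNA, fewer cells of a type and less RNA per cell cannot be told apart.

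Promoter windows of called genes are shown first. Of the 6 genes that fell, 4 had a window, and these 4 share letters there. Zfp647 and Zfp623 had no window and were not examined. RefSeq windows (GRCm38.p6) of 300 bases, 250 before to 50 after a transcription start, were matched by symbol for 186 of the 224 members and for 6 of the 8 called ones. Zfp317, Zfp790 and Zfp692 fell and Zfp367 rose. Capitals mark matches to motifs searched on both strands: the GC box as GGGCGG, the ETS letters as CCGGAAG, the YY1 letters as ATGGCG, the TATA box as TATAAA, the CCAAT box, and the CRE as TGACGTCA. They also mark a pattern like the Staf element, which begins with ACTACA and, after any 2 bases, ends with TCCC. The windows are:
Zfp317 chr9:19621841-19622140 plus strand: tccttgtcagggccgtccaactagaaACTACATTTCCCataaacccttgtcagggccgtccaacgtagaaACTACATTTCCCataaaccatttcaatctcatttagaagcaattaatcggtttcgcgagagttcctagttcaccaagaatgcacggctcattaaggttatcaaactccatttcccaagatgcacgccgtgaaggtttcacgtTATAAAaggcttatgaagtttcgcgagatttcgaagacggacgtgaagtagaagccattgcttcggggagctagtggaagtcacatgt
Zfp790 chr7:29815822-29816121 plus strand: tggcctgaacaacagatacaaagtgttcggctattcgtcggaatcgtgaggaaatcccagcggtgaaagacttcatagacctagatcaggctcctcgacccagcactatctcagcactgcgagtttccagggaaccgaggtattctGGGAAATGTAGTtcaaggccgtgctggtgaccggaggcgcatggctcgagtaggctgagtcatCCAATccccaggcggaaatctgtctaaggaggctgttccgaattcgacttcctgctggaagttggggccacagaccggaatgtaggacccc
Zfp692 chr11:58306819-58307118 plus strand: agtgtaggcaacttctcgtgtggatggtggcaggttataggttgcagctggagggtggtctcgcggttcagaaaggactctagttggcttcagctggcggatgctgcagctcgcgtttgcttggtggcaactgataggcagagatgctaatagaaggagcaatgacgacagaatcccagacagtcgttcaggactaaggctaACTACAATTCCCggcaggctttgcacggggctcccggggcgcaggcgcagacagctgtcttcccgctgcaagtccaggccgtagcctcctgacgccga
Zfp367 chr13:64152324-64152623 minus strand: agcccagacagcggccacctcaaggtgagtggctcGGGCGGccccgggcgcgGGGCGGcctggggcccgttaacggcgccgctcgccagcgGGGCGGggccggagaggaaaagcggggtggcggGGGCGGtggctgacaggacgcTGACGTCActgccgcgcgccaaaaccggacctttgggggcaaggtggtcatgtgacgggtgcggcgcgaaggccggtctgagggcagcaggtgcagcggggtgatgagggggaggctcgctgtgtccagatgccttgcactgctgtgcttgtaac

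The window of Zfp317 holds the Staf-like pattern at 2 places, that of Zfp692 at 1 place and that of Zfp790 at 1 place on the other strand, while the Zfp367 window shown holds 4 GC boxes and a CRE and none of the pattern. A second window of Zfp367 holds 3 CCAAT boxes and 2 GC boxes, and the window of Zfp91 1 ETS and 1 YY1 match, again without the pattern. Zfp14, which also fell, has 1 such match, and a second annotated window of Zfp317 has none. The pattern was chosen after these windows were read, so its presence in the called genes is no finding. Over the members with a window, 29 of 186 genes (15.6%) had it, against 4.98% of the genes that met the level rule and 2.92% of all coding genes. The 25 carriers that were not called had a median log2 difference (KO minus Het) of -0.38, with 22 below 0. The 157 members without it had a median of -0.20, with 115 below 0. They still include the called Zfp367 and Zfp91, so these sets were not filtered alike. The share of 15.6% includes the 4 called genes from which the pattern was read. Among genes outside the family the pattern went with little difference: 400 carriers had a median of -0.04 and 8032 others -0.02. The other motifs were searched alike but are counted here per window and not per gene. Counted so, the Staf-like pattern stood in 12.7% of member windows against 4.14% of windows of genes that met the level rule. A GC box stood in 51.3% of 228 member windows against 62.4% of the windows of genes that met the level rule, CCAAT in 46.5% against 37.5%, the ETS letters in 20.2% against 18.6%, the YY1 letters in 18.4% against 15.5%, TATAAA in 7.89% against 7.03% and the CRE in 3.07% against 3.03%. The median GC content of the member windows was 55.8% against 60.7%. A match describes letters only.

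The Zfp genes were shifted toward lower values in KO cells. The difference was below 0 for 171 of 224 (76.3%), against 54.0% of all genes that met the level rule. The median log2 difference was -0.22, with quartiles of -0.47 and -0.01, against a median of -0.03 over all such genes. On 83 members (37.1%) every KO array lay below every Het array, against 18.2% of all such genes, and on 12 (5.36%) every KO array lay above, against 15.9%. At an unadjusted p under 0.05 (limma), 72 members (32.1%) were lower and 10 (4.46%) higher, where the background was 13.7% lower and 13.0% higher. The plot of cumulative differences shows the whole distribution displaced and not a few genes. No test of the list was made, so these shares are a description.

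**Figure D1:**
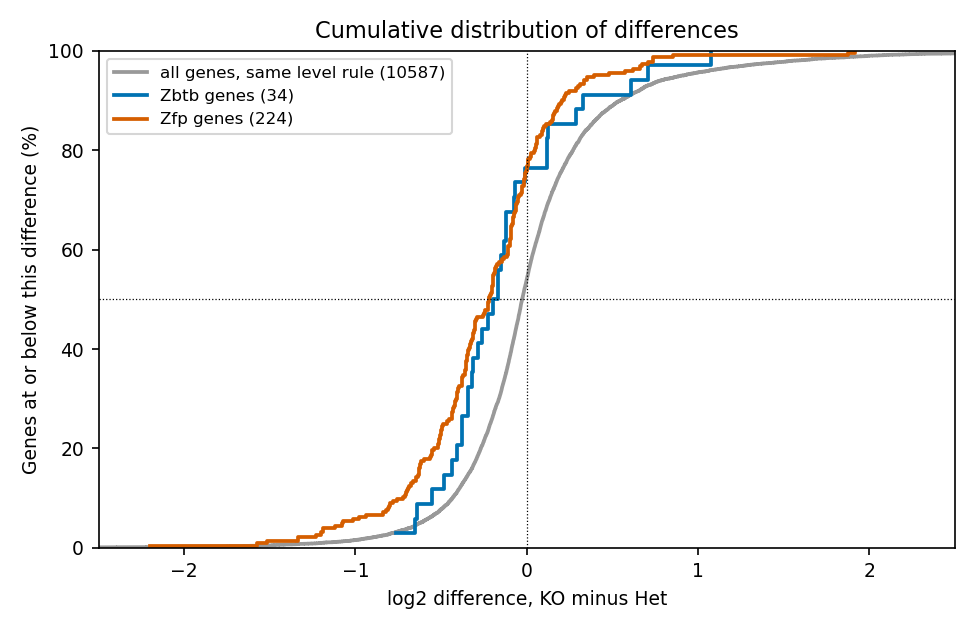
Cumulative share of genes (%) against the log2 difference KO minus Het for the 224 Zfp genes, the 34 Zbtb genes and all 10587 genes that met the same level rule. The Zfp line crosses 50% at -0.22 and the line of all genes at -0.03.

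The shift was seen at all but the highest levels. Members with a mean log2 under 8 (48 genes) had a median difference of -0.19, those from 8 to 10 (106 genes) -0.23 and those from 10 to 12 (60 genes) -0.26, against -0.04, -0.04 and -0.01 for all genes of those levels. The 10 members above 12 had a median of -0.04, with 6 below 0. Restricting to the 209 members above a log2 of 6 on all 6 arrays gave -0.22. Of the 20 members read by s or x probe sets, whose probes may also match other transcripts, 14 lay below 0 and the median was -0.08; the 191 with plain probe sets had -0.22. A further 133 dimmer probe sets of the members met the level rule and had a median of -0.14, with 61.7% below 0; 81 had the sign of the brighter probe set and 52 the opposite one, in 35 genes. The size of the shift thus rests in part on the probe set chosen.

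By array, the median member lay 0.17, 0.05 and 0.14 above its own 6-array mean on Het A, B and C and 0.15, 0.04 and 0.15 below it on KO A, B and C (log2 deviations 0.17, 0.05, 0.14, -0.15, -0.04 and -0.15). All genes under the level rule gave 0.004, -0.02, 0.04, -0.05, 0.04 and -0.02. The median member was thus higher on every Het array than on any KO array, by least between the B arrays. The lowest value of a member was on KO A for 62, KO B for 46 and KO C for 63 genes, and on Het A, B and C for 14, 28 and 11. Without both B arrays the median difference was -0.29 with 175 members below 0, and it was -0.20 with 169 below 0 when the fit held the beta-actin ratio. All genes under the level rule moved too: without both B arrays their median was -0.07 with 59.4% below 0. With all 6 arrays it was -0.03 with 54.0% below 0. The part of other cells in the remaining arrays was not tested.

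**Figure D2:**
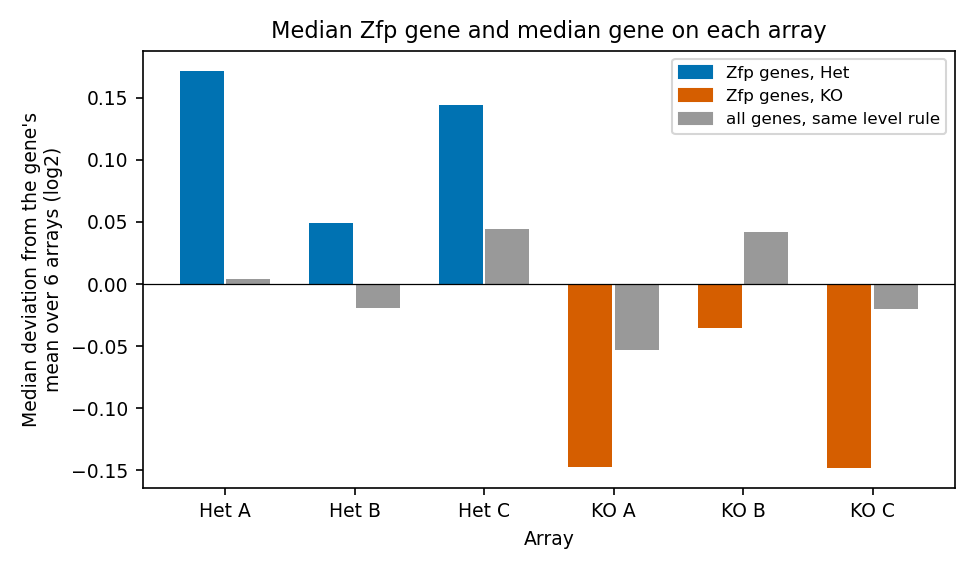
Median deviation of a gene from its own mean over the 6 arrays (log2), by array, for the Zfp genes (coloured by genotype) and for all genes under the same level rule (grey). The Zfp bars are positive on all Het arrays and negative on all KO arrays, smallest on Het B and KO B.

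Single genes past the test were few. By limma with Benjamini-Hochberg adjustment over all 29507 probe sets tested, of which 1.78% were called at an adjusted p under 0.05, 6 members fell and 2 rose. That is 2.68% and 0.893% of members, against 1.16% and 1.71% of all genes that met the level rule. The 6 include Zfp647, which met that rule through the Het arrays alone. Of the 209 members above a log2 of 6 on all 6 arrays, 2.39% fell and 0.957% rose. For all genes above it on all 6 arrays the shares were 1.09% and 1.58%. Of the 216 members that did not pass, 18 had an adjusted p between 0.05 and 0.1, and 17 of the 18 were lower in KO. How all genes split in that range was not counted. A difference of at least 1 on the log2 scale was seen for 13 members downward and 2 upward. Over all 10587 genes that met the level rule it was seen for 167 downward and 463 upward. These calls need all 6 arrays: 0 members were called without Het A, Het B, Het C, KO B or KO C, or without both B arrays, and without KO A Zfp647 alone was called. All 8 kept their sign in each of those fits.

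Zfp647 fell most. It read 211, 199.8 and 261 on Het A, B and C and 44.1, 53.9 and 48.0 on the KO arrays, which is -2.20 ± 0.14 in log2 (SE; by limma, adjusted p = 0.0170). All KO values lay below the level limit of 64 that a log2 of 6 stands for, so its fold depends on how the background was subtracted. Zfp317, which encodes a KRAB zinc finger protein, read 1481, 1062 and 1232 in Het against 545, 485 and 456.5 in KO (log2 -1.34 ± 0.15, adjusted p = 0.0254). For both genes every KO array lay well below the lowest Het array. Zfp14, also of the KRAB class, read 197, 189 and 205 in Het against 128, 117 and 133 in KO (-0.65 ± 0.09, adjusted p = 0.0364).

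Zfp692, also known as AREBP, read 635, 522 and 573.5 in Het against 372, 359.5 and 355 in KO (log2 -0.67 ± 0.10; limma, adjusted p = 0.0424). Zfp790 read 1108, 1067 and 979.6 in Het against 684, 584 and 696 in KO (-0.69 ± 0.10, adjusted p = 0.0465). A dimmer Zfp790 probe set differed by -0.32 (adjusted p = 0.217). Zfp623 read 963, 856 and 789 in Het against 573, 526 and 505 in KO (-0.70 ± 0.11, adjusted p = 0.0465). In these 3 the highest KO array stayed below the lowest Het array.

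The 2 genes that rose were bright. Zfp367, a zinc finger transcription factor, read 1562, 2427 and 2310 on Het A, B and C and 7987, 8148 and 7239 on KO A, B and C, 3.78-fold higher (log2 1.92 ± 0.19; limma, adjusted p = 0.0222). Zfp91, an atypical ubiquitin ligase that promotes non-canonical NF-kappaB signalling, read 3277, 3729 and 3476 in Het against 5268, 6273 and 5946 in KO, 1.67-fold higher (0.74 ± 0.10, adjusted p = 0.0395). Its 2 dimmer probe sets gave 0.56 and 0.85, neither past the test (adjusted p = 0.271 and 0.124). When each array was centred on its median, Zfp91 no longer passed (adjusted p = 0.0502).

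**Figure D3:**
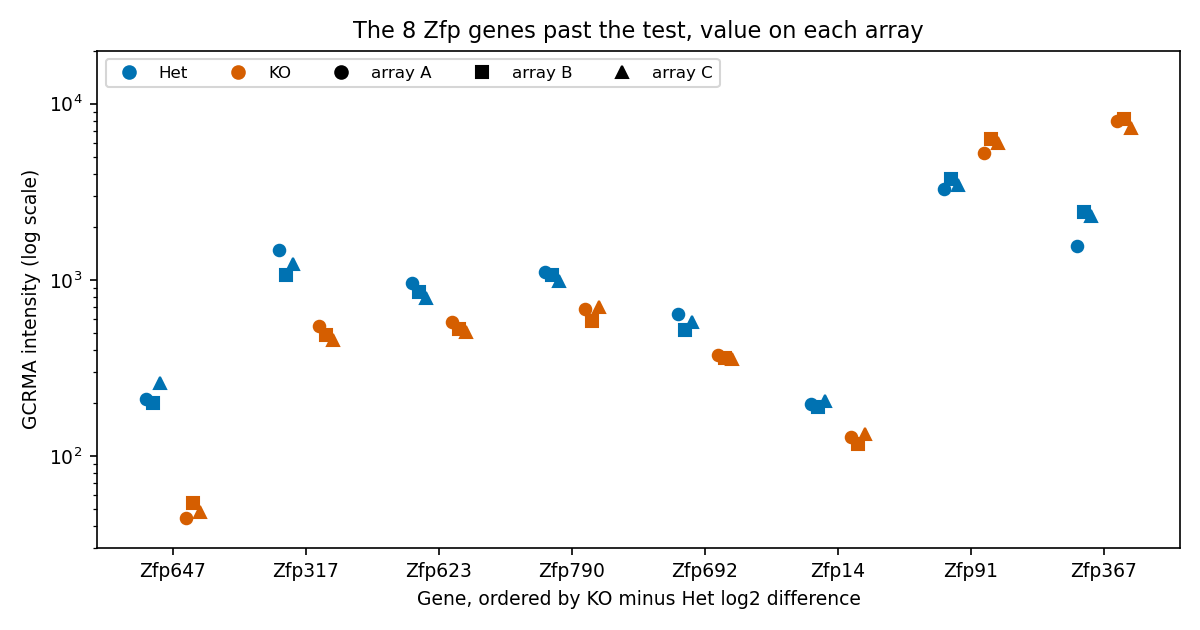
GCRMA intensity (log axis) on each of the 6 arrays for the 8 Zfp genes past the test, Het in blue and KO in orange, with a symbol for each replicate letter. In each gene all 3 KO points lie on one side of all 3 Het points, below in 6 genes and above in Zfp91 and Zfp367.

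**Figure D4:**
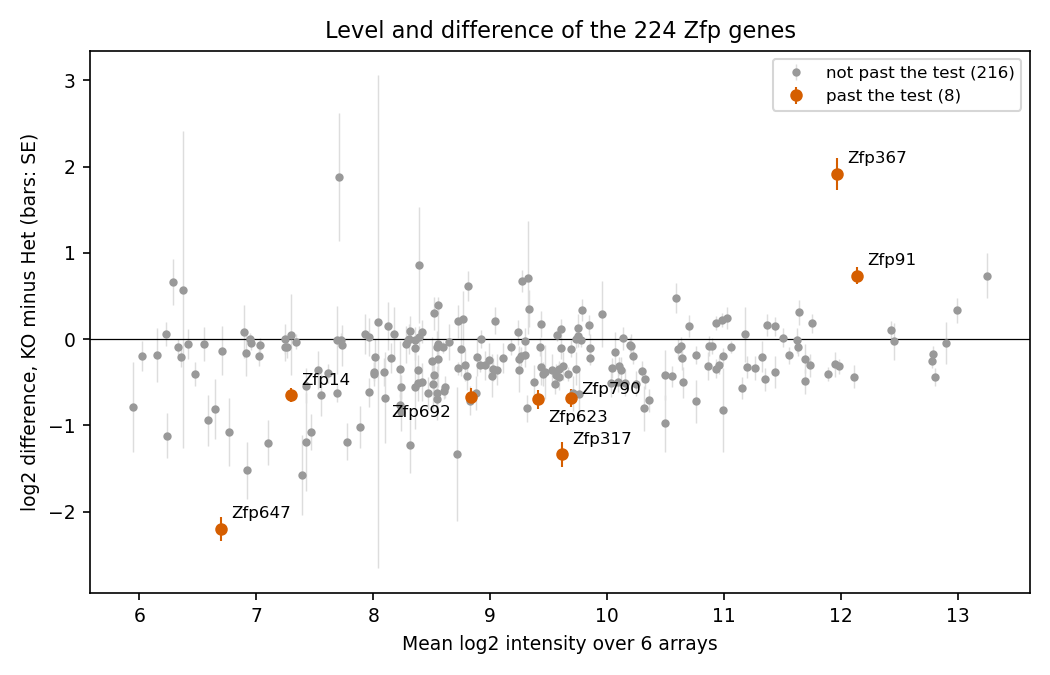
Log2 difference KO minus Het (bars are SE) against the mean log2 intensity over 6 arrays for the 224 Zfp genes. The 6 called decreases lie at mean levels under 10, the 2 called increases near 12, and most grey points lie below 0.

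Large differences that did not pass came with a wide spread between arrays. Zfp882 read 160.1, 576 and 264 in Het against 87.8, 102 and 103 in KO (log2 -1.57 ± 0.46; limma, adjusted p = 0.154), without overlap. Zfp532 read 187, 315 and 146 in Het against 94.9, 61.3 and 62.8 in KO (-1.52 ± 0.33, adjusted p = 0.0873), also without overlap. Zfp760 gave -1.23 ± 0.32 (adjusted p = 0.126), and Zfp946, at 1124, 884 and 301 against 530.5, 344 and 102, gave -1.33 ± 0.77 with overlapping groups. On the other side, Zfp937 read 106, 40.5 and 302 in Het against 431, 274 and 545 in KO (1.88 ± 0.75, adjusted p = 0.256). Zfp991 (0.85 ± 0.67) and Zfp982 (0.71 ± 0.66, on an x probe set) also overlapped between genotypes, and the other Zfp991 probe set gave -1.26.

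Members that act on RNA did not lean lower. None of the 9 passed (limma; 1 higher and 1 lower at p under 0.05 before adjustment), 4 lay below 0 and the median was 0.05. Zfp36, or tristetraprolin, which binds AU-rich elements and speeds decay of cytokine messages, was the brightest member at 7495, 6280 and 9104 in Het against 11567, 9636 and 17803 in KO (log2 0.74 ± 0.26, adjusted p = 0.217). Its KO arrays all lay above its Het arrays. Zfp638, a nuclear nucleic acid binding protein, read 4558, 4168 and 4378 in Het against 3368, 3118 and 3402 in KO (-0.41 ± 0.08, adjusted p = 0.0731), but its 3 dimmer probe sets gave -0.15, 0.25 and 0.53. Zfp622, a factor of large ribosomal subunit maturation, gave 0.33 (95% interval -0.03 to 0.70), and Zfp326, which links elongation to splicing, 0.31. Zfp598, the ligase that marks collided ribosomes, gave -0.11 (-0.53 to 0.31), Zfp106 -0.17, the double-stranded RNA binder Zfp346 -0.09, the splicing factor Zfp830 0.05 and the spindle factor Zfp207 0.10. All 5 dimmer Zfp207 probe sets had the opposite sign, from -0.22 to -0.72.

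Of the members known as regulators of transcription or chromatin, 14 were measured and 0 passed (limma; 2 higher and 2 lower at p under 0.05 before adjustment), with 9 below 0 and a median of -0.08. Zfp652, a repressor, read 532, 508 and 437 in Het against 810.3, 868 and 680.1 in KO (log2 0.67 ± 0.13, adjusted p = 0.0712). The other Zfp652 probe set gave 0.58. Its groups did not overlap on either probe set. Zfp532, Zfp592 and Zfp687, partners in a chromatin complex, gave -1.52, -0.31 and 0.08. The 95% intervals of Zfp592 (-0.72 to 0.09) and Zfp687 (-0.28 to 0.43) span 0, so whether the partners share a sign is not settled. For Zfp592, 2 dimmer probe sets gave 0.05 and 0.07. Zfp281, a GC-rich sequence binder among the 5 brightest members, read 8993, 8687 and 5946 in Het against 8744, 5658 and 8483 in KO (-0.05, 95% interval -0.65 to 0.55), a value whose sign depends on the setting. Its relative Zfp148 gave -0.08. Zfp217 (0.23) and Zfp384 (0.19) had all KO arrays above all Het arrays and Zfp219 (-0.51) all below. Zfp131 (-0.38), Zfp263 (-0.29), Zfp292 (0.15), Zfp410, which activates Chd4 (-0.08), and Zfp827 (-0.43) overlapped.

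Among 5 tested genes with a role in lymphocytes Zfp91 was the 1 that passed, 1 lay below 0 and the median log2 difference was 0.11. Zfp608, studied in thymocytes, read 554, 350.5 and 340.1 in Het against 266, 214 and 202 in KO (log2 -0.84 ± 0.23; limma, adjusted p = 0.132) without overlap, and its other probe set gave -0.68. Zfp318, which controls IgD splicing in B cells, gave 0.11 (95% interval -0.19 to 0.42) and Zfp335, needed for T cell maturation, 0.22 (-0.17 to 0.60). In the list of SUMO and ubiquitin enzymes (Zfp91, Zfp598 and Zfp451) 2 of 3 lay below 0, with the SUMO ligase Zfp451 at -0.12. Zfp521, 1 of the 5 genes with a role in lymphocytes, read 32.3 to 35.2 on all arrays, below the level rule, and is not a member. Its difference of 0.004 is among those counted as above 0. Zfp683, Zfp831, Zfp143, Zfp161 and Zfp609 were not analysed here.

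Genes known as silencers of retroelements or imprinted loci lay about where the whole family did, with none past the test. Of 7 tested in that list (limma; 0 called, with 0 higher and 4 lower at p under 0.05 before adjustment) 6 lay below 0 and the median was -0.25, beside 76.3% below 0 and -0.22 over all members. The list includes Zfp57, which read 32.5 to 37.0 and is not a member. Zfp809, which silences murine leukaemia viruses, read 1289, 1128 and 1350 in Het against 919, 1041 and 716 in KO (log2 -0.51 ± 0.16, adjusted p = 0.181). Zfp932 read 1437, 2479 and 1329 in Het against 1058, 856 and 983 in KO (-0.80 ± 0.26, adjusted p = 0.181), again without overlap. Zfp708 gave -0.65, Zfp445, a partner of Zfp57 at imprints, -0.25 on its brightest probe set at 7600, 8006 and 7395 against 6079, 6846 and 6428, and Zfp961 -0.22. A dimmer Zfp445 probe set gave -0.78 and another 0.06. Zfp568, a repressor of placental Igf2 transcripts, went the other way at 0.35 (95% interval -0.18 to 0.89). Zfp871, in no list but the fourth brightest member, read 8263, 8624 and 8093 in Het against 5606, 6972 and 5974 in KO (-0.43 ± 0.10, adjusted p = 0.107). A dimmer Zfp871 probe set gave 0.46 and another -0.29, both with overlapping groups.

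Members that lie next to another member had the more negative median, a difference that was not tested. In the GRCm38.p6 gene table, which placed 223 of the 224, 87 members had another member as the next coding gene, forming 30 runs and 57 neighbouring pairs. The 87 members with a neighbouring member had a median difference of -0.35 with 76 below 0 (87.4%). The other 137 had -0.14 with 95 below 0 (69.3%), and they include the 1 member that was not placed. Of the 57 neighbouring pairs, 42 (73.7%) had both genes below 0 and 2 (3.51%) both above 0. Among 5995 other neighbouring pairs of genes that met the level rule, 29.7% had both below 0 and 23% both above 0. Duplicated neighbours can share probe sequence, so pairs are not independent readings, and how far that contributes was not tested.

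Of the 13 runs of 3 or more genes, 12 had a median below 0 and in 8 every gene lay below 0. As 76.3% of all members lay below 0, runs with a negative median would be common by that share alone. Runs of other genes were not counted. The longest held Zfp420, Zfp27, Zfp383, Zfp74, Zfp568, Zfp14, Zfp82 and Zfp566, with 7 of 8 below 0, a median of -0.49 and a range from -1.08 to 0.35; Zfp14 was the 1 that passed and Zfp568 the 1 above 0. Zfp709, Zfp882, Zfp617 and Zfp961 ranged from -1.57 to -0.22. The run of Zfp677, Zfp54, Zfp51, Zfp53, Zfp52, Zfp948 and Zfp983 had a median of -0.09 and ranged from -0.57 to 0.06, with 6 of 7 below 0. In that run Zfp51 read 3185, 2665 and 2528 in Het against 1836, 1724 and 2086 in KO, without overlap (limma, adjusted p = 0.0930). Zfp51 has the lowest difference of the run and was named outside the rules given below. Zfp524, Zfp865 and Zfp784 formed the run with a positive median, 0.03.

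**Figure D5:**
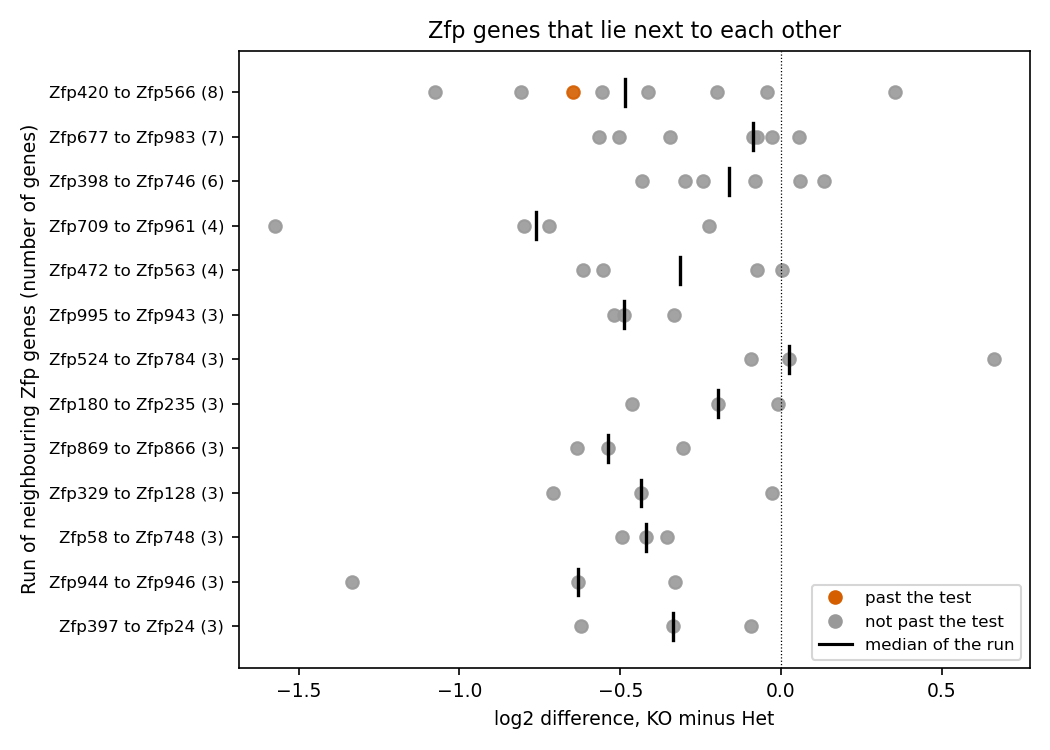
Log2 difference KO minus Het of each member in the 13 runs of 3 or more neighbouring Zfp genes (grey points, orange where past the test), with a bar at each run's median. In 12 runs the bar lies left of 0, and 46 of the 53 genes do. Of all 224 members 76.3% lay below 0.

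The shift was not limited to the Zfp name. Of 34 Zbtb genes, zinc finger factors with a BTB domain, under the same rule 26 (76.5%) lay below 0 with a median of -0.18, and Zbtb18 alone was called, rising from 6474, 6042 and 7419 to 13031, 16429 and 12765 (log2 1.08 ± 0.14; limma, adjusted p = 0.0338). Of 17 Zscan and Zkscan genes 16 lay below 0 with a median of -0.17, and 0 were called (limma; 4 lower and 0 higher at p under 0.05 before adjustment). The 40 Zfp genes under the level rule that could be tested had a median of -0.10 with 80.0% below 0; Zfp661, chosen for naming after its value was seen, fell from 34.9, 23.5 and 23.8 to 10.5, 12.8 and 12.4 (-1.18, adjusted p = 0.0492). Just inside the level rule stood Zfp78, at 62.6 to 74.9 in Het and 47.8 to 69.0 in KO, and Zfp189, at 46.9 to 97.7 and 56.7 to 72.6. Just outside stood Zfp473, at 27.0 to 62.5 and 63.5 to 67.8, and Zfp941, at 61.6 to 63.4 and 61.5 to 61.6.

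The partners of these proteins showed no such lean. Of 21 measured genes of the Trim28 silencing machinery 0 were called (limma; 2 higher and 3 lower at p under 0.05 before adjustment), with 10 below 0 and a median of 0.02. The histone deacetylase gene Hdac2 gave -0.32 (adjusted p = 0.145) and the methyltransferase gene Suv39h2 0.71 (adjusted p = 0.169). Of 21 measured genes that work with Zfp36 in RNA decay 0 were called (5 higher and 2 lower at p under 0.05 before adjustment), with a median of 0.03. Zfp36l1, of the same family as Zfp36, read 24575, 28102 and 25753 in Het against 19201, 16941 and 20858 in KO (log2 -0.46 ± 0.11, adjusted p = 0.103). Zfp36l2, also of that family, read 34218, 30831 and 22902 in Het against 43056, 37663 and 47134 in KO (0.55 ± 0.18, adjusted p = 0.183), so of the 3 relatives Zfp36 and Zfp36l2 were higher and Zfp36l1 lower in KO, each without overlap and none past the test. Zfp36l2 was added to the named genes after its value was seen. The decapping gene Dcp2 gave 0.34 (adjusted p = 0.151).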

How the data were processed

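RNA of 6 samples was read on expression arrays with 1 value per probe set. The deposited values are intensities normalized by the authors with GCRMA, per the labels; no version was found in them. GCRMA models background from each probe's sequence, so folds of dim genes rest on that model. Their range of 1.23 to 170023 marks a linear scale, so log2 was taken. Of 45101 probe sets, 64 controls and 1 with a missing value were set aside and 29507 above a log2 of 4 on at least 3 arrays were fitted with limma 3.58.1 in R 4.3.3 (two-sided, no covariates, Benjamini-Hochberg, threshold 0.05). Probe sets were named from the platform annotation table: 34958 had 1 symbol, 932 several and 9211 none. The fit was tested on simulated data. The 3 arrays per group limit the precision.

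The members, lists and tests were chosen with earlier results of these data known. Named genes are all called members, the 5 brightest, those in role lists, the 4 largest differences each way not past the test, the genes nearest the level limit, and, of the partner lists, the 2 with smallest p. Zfp51, Zfp661, Zfp36l2 and Zbtb18 are among genes named outside these rules. Alternatives were a replicate block, other filters and scalings, other variance models, mean of probe sets, and leaving out arrays. A split by protein class was not run, since no protein sequences were used here.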

Additional observations from a re-analysis of the deposited data

How the results depend on the processing

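Over 16 alternatives the members' median log2 difference ran from -0.29 to -0.20 and the share below 0 from 72.8% to 78.1%. It was -0.29 without both B arrays, -0.28 with array weights and -0.27 to -0.21 with 1 array left out. Over all genes under the level rule the median ran from -0.066 to -0.004 and the share below 0 from 50.6% to 59.4%. Counts of calls were less stable. Of all probe sets 525 were called, 957 with array weights, 0 without both B arrays and 0 to 176 when 1 array was left out. Members called lower numbered 6, but 10 when only probe sets above a log2 of 6 were fitted, 15 when probe sets were averaged per gene, 9 with array weights, 4 with no filter on dim probe sets, 4 with the beta-actin ratio in the fit (6 of the 8 calls kept), 2 with an intensity trend and robust estimation, 0 without both B arrays and 0 to 1 with 1 array left out. Members called higher numbered 2, but 3 with the beta-actin ratio, 3 when probe sets were averaged, 1 with median centring, 0 without both B arrays and 0 each time 1 array was left out. The cause was not tested, though fewer arrays leave fewer degrees of freedom. The 8 called members kept their sign throughout. With the replicate letter as a block, called a replicate block here, 0 probe sets and 0 members were called (limma; 67 members lower and 9 higher at p under 0.05 before adjustment). Deviations of same-lettered arrays from their group means had r = 0.28, -0.17 and 0.01 for A, B and C. The highest r, 0.37, was between Het C and KO B. With 3 arrays per group these values cannot tell whether the letters pair the arrays, and the labels do not say.

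Signs turned for these members; the cause was not tested. Zfp281 gave 0.080 with array weights, 0.24 without both B arrays, 0.028 with the mean of probe sets and -0.24 to 0.15 with 1 array left out. With the mean of probe sets Zfp106 gave 0.0052, Zfp638 0.057, Zfp207 -0.34 and Zfp991 -0.20. Zfp148 gave 0.0097 without both B arrays. With 1 array left out, Zfp598 ran from -0.24 to 0.015, Zfp687 from -0.046 to 0.18, Zfp982 from -0.022 to 1.25 and Zfp189 from -0.53 to 0.0022. The median by protein class was not run.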
